A study of Mus musculus with 16 samples.

Results

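The 28 genes described here make cholesterol, sense sterols or move cholesterol inside the cell, and they were chosen by symbol from the known pathway. They comprise 20 synthesis enzymes, 4 genes of sterol sensing and 4 genes of cholesterol transport and storage. All 28 were present in both deposited tables of mouse islet RNA sequencing, among 16815 genes that the tables share (17361 genes in one table and 17318 in the other). Each of the 28 was above 0 in all 16 libraries. Other genes of the pathway were not analysed here.

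The libraries fall into 4 groups of 4. B7-H4 (the gene Vtcn1) is an immune checkpoint molecule, and the study asked how it affects islet function and cholesterol handling. Flox mice carry a floxed exon 2 of Vtcn1 on the C57BL/6J background, were fed chow and have no Cre. The cKO mice are Rip-Cre; B7-H4 fl/fl on the same diet, with Cre from the transgene B6.Cg-Tg(Ins2-cre)25Mgn/J under the rat insulin II promoter. Cre and the deletion therefore cannot be told apart between cKO and Flox islets. Both virus groups are Flox mice in the study's methods, while the design text deposited with the series calls them WT. They were 6 weeks old when a high-fat diet of 8 weeks began. H-ins2-C mice then received a control virus into the pancreatic duct, and H-ins2-O mice an AAV2/8 virus that carries B7-H4 and ZSGreen under an insulin 2 promoter. Their islets were taken 5 weeks later. Islets were released with collagenase and picked by hand, so each library is a mixture of cells from bulk islets. The sources used here do not give the age of the chow mice, the sex of the mice, or whether a library pooled several mice. P-values measure the spread between these libraries. Libraries are named Flox16, Flox17, Flox20 and Flox21, cKO8, cKO9, cKO12 and cKO38, Ctrl1, Ctrl2, Ctrl3 and Ctrl5 for H-ins2-C, and OE1 to OE4 for H-ins2-O.

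Cells build cholesterol from acetyl-CoA through mevalonate, squalene and lanosterol. When membranes of the endoplasmic reticulum hold little sterol, the escort protein Scap carries the transcription factor SREBP2 (gene Srebf2) to the Golgi, where it is cut and released to switch on the enzymes of synthesis. When sterol is plentiful, Insig1 and Insig2 hold Scap back and the same genes are switched off. In β cells cholesterol is part of the membrane of insulin granules and of the plasma membrane at which they fuse.

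All values are FPKM, fragment counts normalised to transcript length and to the mapped fragments of the library, so levels of different genes can be compared within a library. Read totals are not known, and no counting interval is given for any value. The smallest steps between values put the relative depth of the libraries between 0.840 and 1.08 of the median of their table. All 10 β-cell markers were above 0 in every library, but their share of the summed FPKM moved with the groups. It was 25.8 to 32.8% in cKO and 35.4 to 54.7% in Flox, without overlap, and 47.0 to 51.1% in H-ins2-O, while in H-ins2-C it was 4.38% in Ctrl3, 19.1% in Ctrl2, 39.4% in Ctrl5 and 55.1% in Ctrl1. The share of α-cell markers was 0.780 to 1.2% in cKO and 1.23 to 2.37% in Flox. It was 3.68 to 4.35% in H-ins2-O, and in H-ins2-C 0.110% in Ctrl3, 0.456% in Ctrl2, 3.48% in Ctrl1 and 13.6% in Ctrl5. Among the virus libraries Ctrl5 also had the largest shares of δ-cell, endothelial and macrophage markers. Ins2 itself was called lower in cKO (log2 fold change -0.72 ± 0.12, adjusted p = 0.00744 in limma, and -0.34 ± 0.63 after scaling). Ins1 was not called (-0.22 ± 0.13, adjusted p = 0.184 in limma, and 0.17 ± 0.47 after scaling). The part of these shares in the results was not tested. Acinar digestive enzyme genes were also high. Of 20 acinar markers 19 were listed in each table, all above 0 in every library, and together they took 7.37 to 35.1% of the summed FPKM in Flox, 36.0 to 45.4% in cKO, 2.10 to 72.6% in H-ins2-C and 10.8 to 14.2% in H-ins2-O. Ctrl2 (55.8%) and Ctrl3 (72.6%) stood apart from Ctrl1 (5.38%) and Ctrl5 (2.10%). Vtcn1 was high in OE1 to OE4 (40.0, 128, 74.1 and 60.5 FPKM) and at most 0.371 FPKM in the Ctrl libraries. In the other table it lay between 0.0188 and 0.216 FPKM in Flox and between 0.0202 and 0.125 FPKM in cKO, too low for its level to check the deletion. The study itself checked the deletion in islets by quantitative PCR and Western blot, and reported lower B7-H4 in cKO by both.

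FPKM is a share of the library, so a larger share in some genes leaves a smaller one for the rest, and fewer cells of a type cannot be told apart from less RNA per cell. Each comparison is therefore given as deposited and after median-of-ratios scaling, which divides a library by the median over genes of its ratio to the geometric mean of the 8 libraries of its table. The scaling factors ran from 0.814 to 1.0 in cKO, 0.896 to 1.37 in Flox, 0.338 to 1.47 in H-ins2-C and 1.19 to 1.24 in H-ins2-O. Fold changes are differences of log2(FPKM + 0.5) from limma, with the Benjamini-Hochberg adjustment over all genes tested, and calling a gene required an adjusted p below 0.05.

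**Figure D1:**
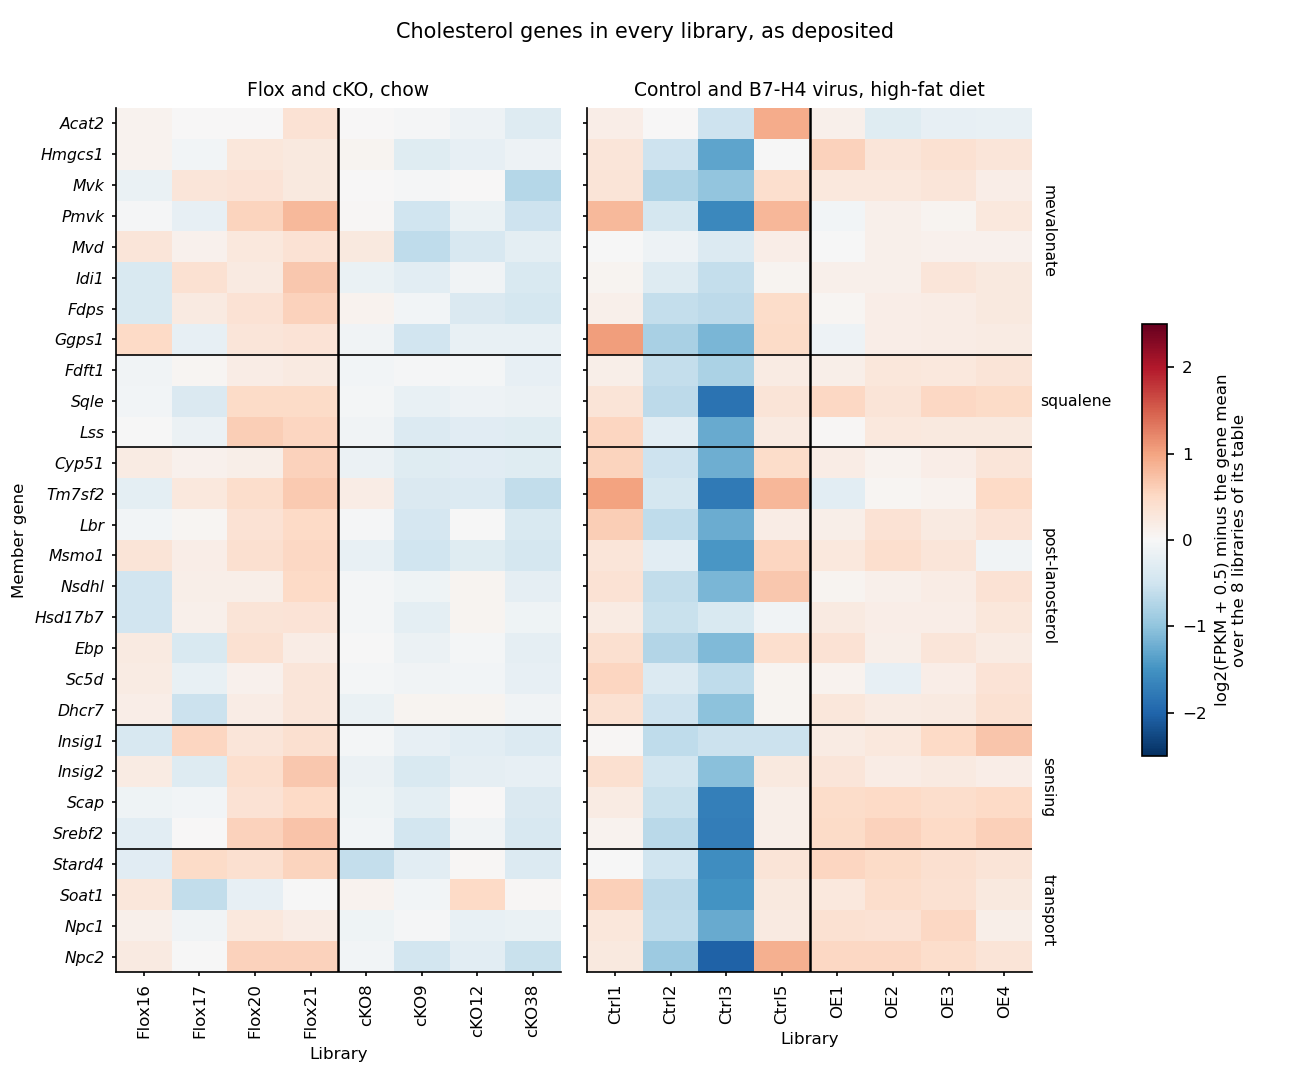
Each row is 1 of the 28 genes, grouped by role, and each column a library. Colour gives log2(FPKM + 0.5) as deposited minus the mean of the gene over the 8 libraries of its table. Ctrl3 is the lowest column, with a median over the 28 genes of -1.19, and Flox20 (0.34) and Flox21 (0.48) have the highest medians of the left panel.

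The levels of the 28 genes in Flox islets spanned a wide range. Npc2, a soluble lysosomal protein that hands cholesterol to Npc1, had the highest mean level at 46.0 ± 9.04 FPKM (SD, n = 4). Next came Sqle, squalene epoxidase and a rate-limiting step of the later pathway, at 42.8 ± 11.9 FPKM, and Insig1 at 35.6 ± 9.13 FPKM. Msmo1, the methylsterol monooxygenase that starts removal of the C4 methyl groups of lanosterol-derived sterols, stood at 24.5 ± 2.46 FPKM. Srebf2 (20.2 ± 6.45 FPKM), Fdps (19.8 ± 5.20 FPKM) and Scap (17.6 ± 3.83 FPKM) followed. Fdps makes farnesyl diphosphate, the last intermediate shared by cholesterol and the prenyl groups of proteins.

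The lower end of the order was held by Mvd (2.51 ± 0.226 FPKM), the decarboxylase at the end of the mevalonate steps, Idi1 (1.70 ± 0.628 FPKM), the isomerase that follows it, and Hsd17b7 (0.701 ± 0.285 FPKM), a ketosteroid reductase of sterol demethylation. Most neighbours in the order were not separated beyond their spread. In 26 of 27 neighbouring pairs the ranges over the 4 Flox libraries overlapped, the exception being Scap and Ebp (10.7 ± 2.32 FPKM), the sterol isomerase. Within a group the coefficient of variation had a median over the 28 genes of 23.7% in Flox, 11.9% in cKO, 52.2% in H-ins2-C and 7.60% in H-ins2-O. Over all genes these medians were 23.6, 13.9, 63.0 and 9.0%, so the 28 genes varied between libraries about as other genes did.

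**Figure D2:**
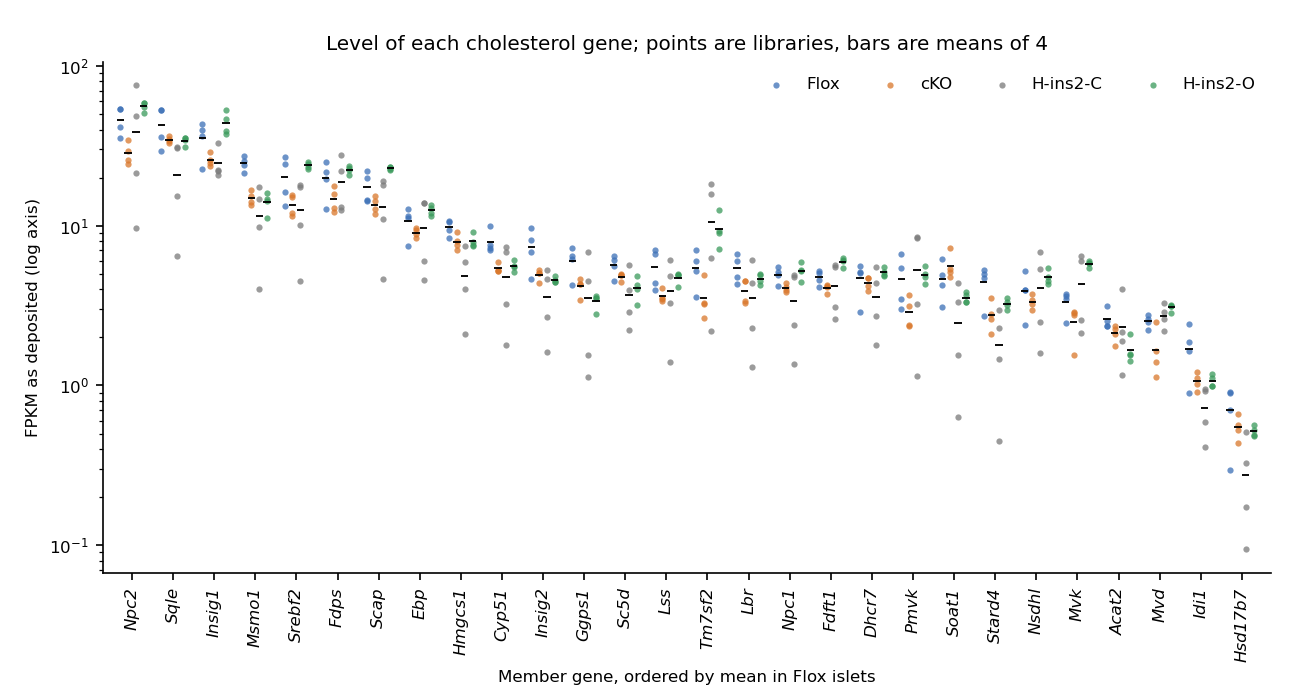
FPKM of each gene as deposited on a log axis, ordered by the mean in Flox islets, with a point for each library and a bar for the mean of 4. Npc2, Sqle and Insig1 have the highest Flox means (46.0, 42.8 and 35.6 FPKM) and Hsd17b7 the lowest (0.701 FPKM). The H-ins2-C points are the most spread and the H-ins2-O points the least.

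The 28 genes followed the shift of all genes from library to library. The median over the 28 genes, on the log2 scale and centred on each gene's mean, was -1.19 in Ctrl3 and -0.56 in Ctrl2, where the median over all genes tested was -1.25 and -0.55. Summed over the 28 genes, the level was 97.9 FPKM in Ctrl3 and 158 FPKM in Ctrl2 against 311 FPKM in Ctrl1 and 326 FPKM in Ctrl5. In the chow libraries the sum was lowest in cKO38 (208 FPKM) and highest in Flox21 (372 FPKM). The difference between the median of the 28 genes and that of all genes lay between -0.21 in Ctrl5 and 0.16 in Flox17. The libraries with the largest acinar shares had the lowest medians, and the part of the acinar share in any result below was not tested apart from the covariate fits named there.

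**Figure D3:**
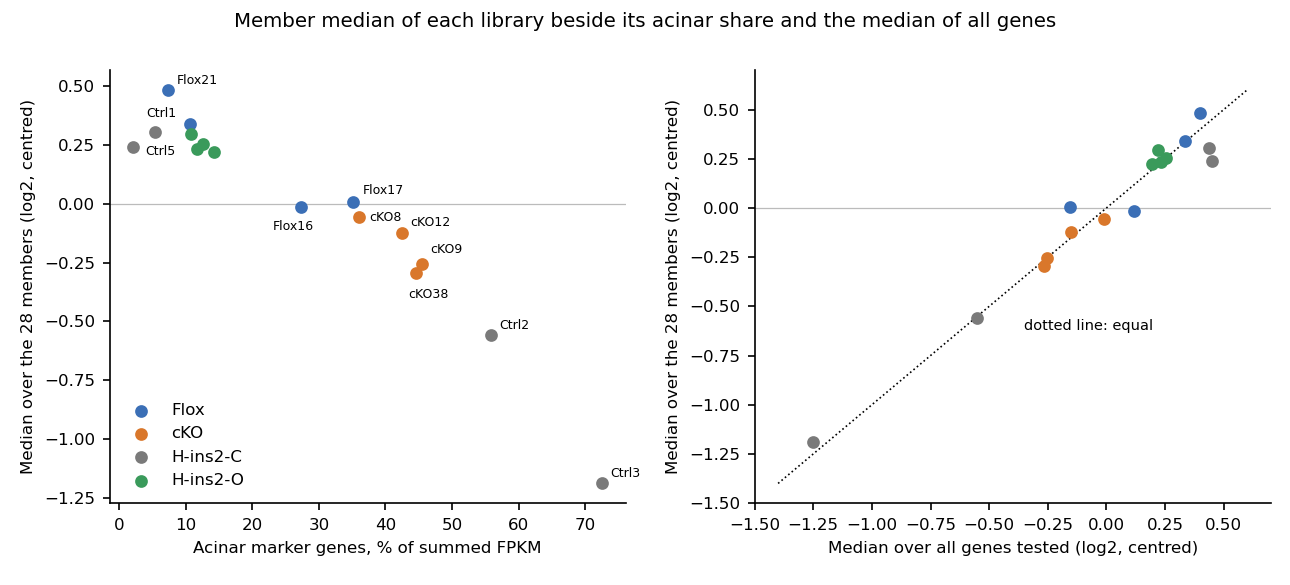
Both panels plot, for each of the 16 libraries, the median over the 28 genes of centred log2(FPKM + 0.5). The left panel sets it against the share of summed FPKM in acinar marker genes, and Ctrl3 (72.6%) and Ctrl2 (55.8%) lie lowest. The right panel sets it against the same median over all genes tested, and the points lie near the dotted line of equality.

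The comparison of cKO with Flox islets asked what follows when β cells lose B7-H4 on chow. As deposited, 27 of the 28 genes had a lower mean in cKO and 1, Soat1, a higher one. This was also the direction of 86.9% of all genes tested. The median log2 fold change was -0.40 over the 28 genes and -0.34 over all 11804 genes. Msmo1 and Npc2 fell in cKO islets by this test, and none rose. That is 2 of 28 genes, against 12.8% of all genes called lower and 1.02% called higher. After scaling, 12 genes had a higher and 16 a lower mean, the median was -0.04 against -0.00 over all genes, and none of the 28 was called, where 1.13% of all genes were called higher and 1.25% lower. As deposited, 14 of the 28 were lower with an unadjusted p below 0.05, against 38.3% of all genes.

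Msmo1 (chr8:64718123-64733578 in GRCm38.p6, the assembly of mm10) read 24.1, 21.5, 25.4 and 27.3 FPKM in Flox16, Flox17, Flox20 and Flox21, and 16.7, 13.4, 15.3 and 14.0 FPKM in cKO8, cKO9, cKO12 and cKO38. Every cKO library was below every Flox library. The log2 fold change was -0.70 ± 0.17 (SE), adjusted p = 0.0202 in limma. After scaling, the values were 21.9, 24.0, 19.5 and 19.9 FPKM in the same order of Flox libraries and 16.7, 16.3, 17.1 and 17.2 FPKM in cKO, still without overlap. The scaled fold change was -0.33 ± 0.079, adjusted p = 0.0558 in limma, just past the threshold.

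Npc2 (chr12:84754559-84773112) gave a similar result. It read 41.8, 35.3, 53.5 and 53.5 FPKM in Flox and 34.2, 25.9, 29.5 and 24.2 FPKM in cKO, a log2 fold change of -0.67 ± 0.18 with an adjusted p of 0.0273 in limma. After scaling it read 38.0, 39.4, 41.2 and 39.0 FPKM in Flox and 34.0, 31.5, 32.9 and 29.7 FPKM in cKO, and the fold change was -0.30 ± 0.069, adjusted p = 0.0541 in limma. The groups did not overlap on either scale. Npc1, the membrane protein that takes cholesterol from Npc2 and moves it out of lysosomes, was less different, at 4.92 ± 0.537 FPKM in Flox and 4.07 ± 0.244 FPKM in cKO (log2 fold change -0.24 ± 0.18, adjusted p = 0.278 in limma). Its scaled fold change was 0.10 ± 0.11, in the other direction.

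Few of the 28 genes had groups without overlap, a share near that of all genes. As deposited, Cyp51, Msmo1 and Npc2 had every cKO library below every Flox library, 3 of 28 genes where 15.4% of all genes did so, and none had every cKO library above, where 1.32% did. After scaling, Msmo1 and Npc2 were the 2 genes without overlap, against 7.66% of all genes in that direction, and none was without overlap in the higher direction (6.86%).

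Msmo1 and Npc2 were each called in 3 of the 8 fits that leave out a library. The number of all genes called lower also changed widely between these fits, as given in the section on processing. Neither was called when cKO9, cKO12, cKO38, Flox20 or Flox21 was left out (adjusted p 0.051 to 0.0919 for Msmo1 and 0.0582 to 0.108 for Npc2 in limma), while the fold changes stayed between -0.77 and -0.65 for Msmo1 and between -0.79 and -0.60 for Npc2 over all 8 omissions. Without Flox17, the Flox library with the largest acinar share, 16 of the 28 genes were called lower, beside 57.2% of all genes, and without Flox16 10 were called, beside 21.3%. Without cKO8 4 were called, beside 12.9%. With the 3 libraries per group that the study's heatmaps show (Flox16, Flox20, Flox21, cKO9, cKO12 and cKO38), 16 of the 28 were called lower and 63.5% of all genes were. With the acinar share as a covariate none was called, of the 28 or of all genes. In that fit Msmo1 had -0.52 ± 0.14 and Npc2 -0.30 ± 0.15. The acinar share did not overlap between the groups (36.0 to 45.4% in cKO, 7.37 to 35.1% in Flox), so this fit can hardly tell the share from the group. Scaled and without Flox16, Msmo1, Npc2 and Srebf2 were called lower and Soat1 higher. In that fit 967 of all genes were called lower and 1017 higher.

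Among the mevalonate enzymes, all 8 had a lower mean in cKO and none was called. Their median log2 fold change was -0.42. Pmvk, phosphomevalonate kinase, had -0.56 ± 0.23 (adjusted p = 0.0765 in limma), Mvd -0.51 ± 0.20 (0.0752) and Ggps1, which makes geranylgeranyl diphosphate for protein prenylation, -0.47 ± 0.19 (0.0820). Hmgcs1, the synthase that makes HMG-CoA, stood at 9.78 ± 1.09 FPKM in Flox and 7.96 ± 0.916 FPKM in cKO, a log2 fold change of -0.28 ± 0.18. Acat2, a cytosolic acetoacetyl-CoA thiolase at the head of the pathway, had -0.24 ± 0.19. After scaling, Acat2 and Hmgcs1 had positive fold changes (0.08 each) and the other 6 negative ones, between -0.23 and -0.02.

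The squalene steps had a median of -0.26. Lss, which closes squalene epoxide to lanosterol, had -0.51 ± 0.20 (adjusted p = 0.0754 in limma), and Fdft1, which makes squalene, -0.19 ± 0.18. Sqle was at 36.1, 29.3, 52.7 and 52.8 FPKM in Flox and 36.3, 33.0, 34.7 and 34.0 FPKM in cKO. The cKO values lay inside the Flox range, and the scaled fold change was 0.12 ± 0.091.

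Of the 9 enzymes after lanosterol, Msmo1 was the one called. Cyp51, which removes the 14-methyl group of lanosterol, read 7.59, 7.05, 7.24 and 9.91 FPKM in Flox and 5.88, 5.23, 5.29 and 5.24 FPKM in cKO. These groups did not overlap as deposited, at a log2 fold change of -0.50 ± 0.18 and an adjusted p of 0.0571 in limma, and did after scaling (-0.15 ± 0.10). Tm7sf2 and Lbr, which both carry sterol 14-reductase activity, had -0.56 ± 0.22 and -0.41 ± 0.19. Dhcr7, the last enzyme of one branch, had the smallest fold change of the 28 as deposited, -0.06 ± 0.20, and 0.29 ± 0.13 after scaling (adjusted p = 0.187 in limma). In Flox17 Dhcr7 was at 2.90 FPKM against 5.06 to 5.60 FPKM in the other 3 Flox libraries. The other enzymes of this stretch, Nsdhl, Hsd17b7, Ebp and Sc5d, lay between -0.21 and -0.16, and between 0.05 and 0.18 after scaling.

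The 4 genes of sterol sensing had a lower mean in cKO by similar amounts, with a median of -0.45. Srebf2 read 13.3, 16.2, 24.4 and 26.8 FPKM in Flox and 15.5, 11.6, 15.1 and 12.0 FPKM in cKO. Flox16 lay inside the range of the cKO libraries, Flox17 just above it and Flox20 and Flox21 well above it. The log2 fold change was -0.51 ± 0.21 (adjusted p = 0.0818 in limma) and -0.14 ± 0.14 after scaling. Scap had -0.35 ± 0.19, Insig1 -0.42 ± 0.19 and Insig2 -0.48 ± 0.21, and after scaling 0.02 ± 0.094, -0.04 ± 0.22 and -0.12 ± 0.10.

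Soat1, which esterifies cholesterol for storage in lipid droplets, was the exception. The gene (chr1:156428108-156474328) read 6.16, 3.11, 4.25 and 4.93 FPKM in Flox and 5.36, 4.75, 7.30 and 5.10 FPKM in cKO, and the groups overlapped. Its log2 fold change was 0.28 ± 0.21 as deposited (adjusted p = 0.285 in limma) and 0.63 ± 0.17 after scaling (adjusted p = 0.0718 in limma). Scaled, Flox16 at 5.60 FPKM lay among the cKO values of 5.35 to 8.12 FPKM and the other 3 Flox libraries lay between 3.27 and 3.59 FPKM. Without Flox16 the scaled fold change was 0.79 ± 0.13, adjusted p = 0.00484 in limma, in a fit that called 1017 of all genes higher. Stard4, a carrier of cholesterol through the cytosol, had -0.58 ± 0.21 (adjusted p = 0.0620 in limma), from 2.73, 4.99, 4.69 and 5.28 FPKM in Flox to 2.11, 2.79, 3.52 and 2.62 FPKM in cKO, and -0.24 ± 0.22 after scaling.

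**Figure D4:**
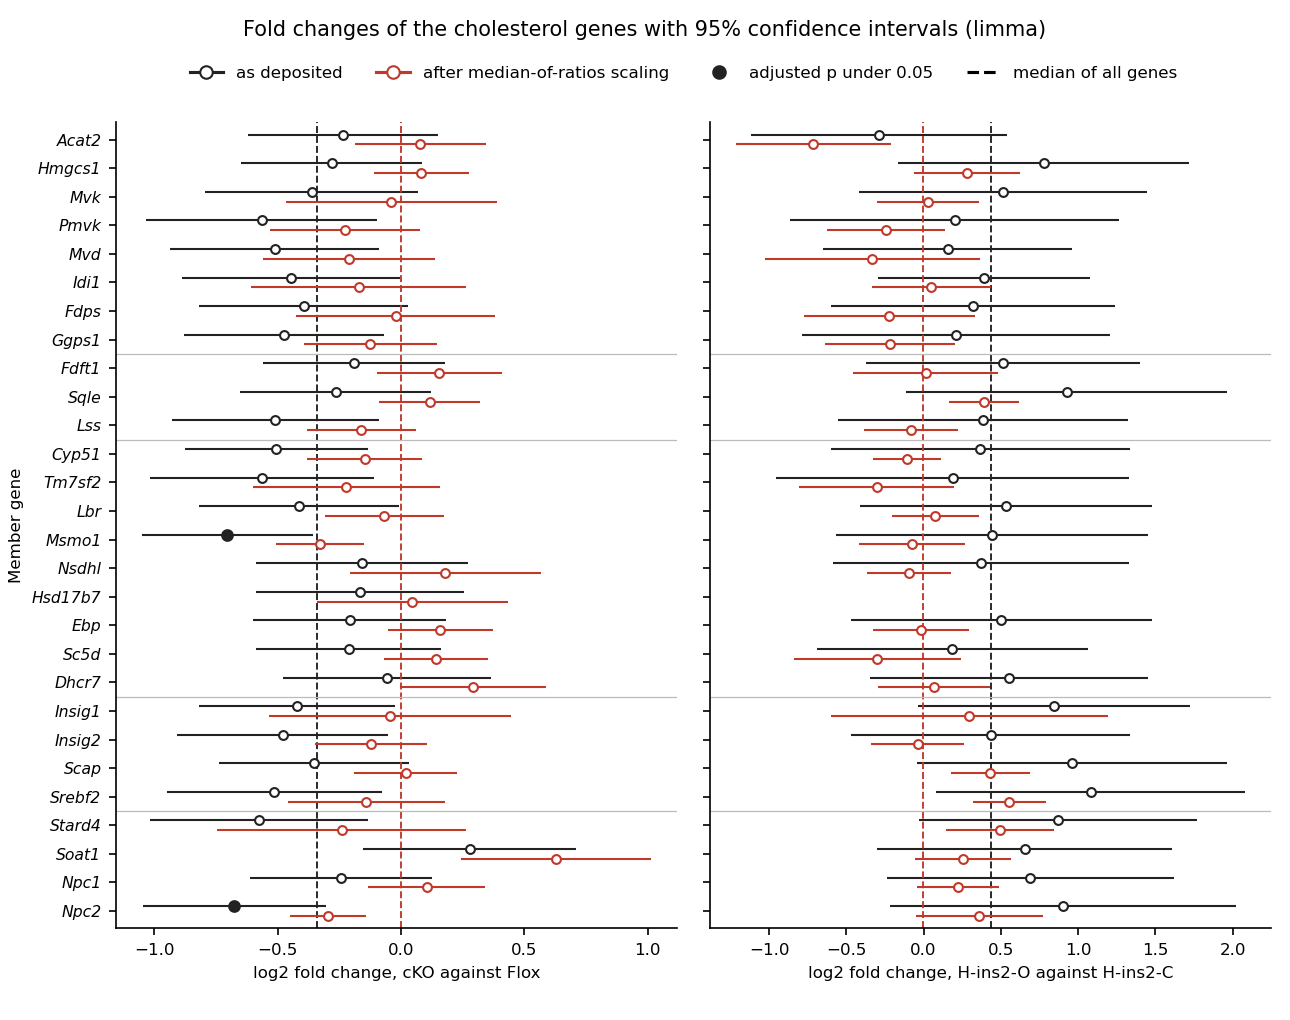
Log2 fold changes with 95% confidence intervals from limma for each gene, cKO against Flox on the left and H-ins2-O against H-ins2-C on the right. Black is as deposited and red after scaling, filled circles are called, and dashed lines are the medians of all genes. Msmo1 (-0.70) and Npc2 (-0.67) are the 2 filled circles. Hsd17b7 was below the filter on the right.

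The comparison of H-ins2-O with H-ins2-C islets asked what extra B7-H4 in β cells does on a high-fat diet. Here 27 of the 28 genes passed the filter of a mean of 0.5 FPKM, and Hsd17b7 did not, at 0.0939 to 0.512 FPKM in the Ctrl libraries and 0.482 to 0.567 FPKM in OE. As deposited, 26 of the 27 had a higher mean in H-ins2-O, as did 84.2% of all 12132 genes tested, and 1, Acat2, a lower one. The median log2 fold change was 0.50 over the 27 genes and 0.44 over all genes. None of the 27 was called, where 0.033% of all genes were called higher and 0% lower. Srebf2, 1 of the 27, was higher with an unadjusted p below 0.05, against 5.58% of all genes. After scaling, 14 genes had a higher and 13 a lower mean around a median of 0.01, none was called (0.0332% of all genes higher, 0% lower). Srebf2, Scap, Sqle and Stard4, 4 of the 27, were higher with an unadjusted p below 0.05, against 13.3% of all genes, and Acat2, 1 of the 27, was lower, against 9.5% of all genes.

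The genes of sterol sensing had the highest median, 0.90, and those of transport 0.78. The squalene steps had 0.51, the steps after lanosterol 0.41 and the mevalonate steps 0.27. Standard errors as deposited lay between 0.33 and 0.55 over the 27 genes, and between 0.097 and 0.39 after scaling.

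Srebf2, the gene of SREBP2, had the highest fold change of the 27. The gene (chr15:82147269-82205379) read 17.4, 10.1, 4.52 and 18 FPKM in Ctrl1, Ctrl2, Ctrl3 and Ctrl5, and 22.8, 24.5, 23.2 and 24.9 FPKM in OE1 to OE4. All OE libraries were above all Ctrl libraries, and Ctrl3 was far below the others. The log2 fold change was 1.08 ± 0.48 (adjusted p = 0.591 in limma), and 0.68 when Ctrl3 was left out. After scaling Srebf2 read 12.0, 15.4, 13.4 and 12.3 FPKM in Ctrl and 19.2, 20.1, 18.7 and 20.6 FPKM in OE, still without overlap, at 0.55 ± 0.10 and an adjusted p of 0.0774 in limma. Over the 8 scaled fits that leave out a library the fold change ran from 0.51 to 0.62, and Srebf2 was called once, without Ctrl2 (adjusted p = 0.0480 in limma). In that fit 35 of all genes were called higher.

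Scap, the escort of SREBP2, gave similar values. The gene (chr9:110333288-110384949) read 19.0, 11.0, 4.61 and 18 FPKM in Ctrl and 22.6, 23.3, 22.4 and 23.3 FPKM in OE, with a log2 fold change of 0.96 ± 0.48. After scaling Ctrl ran from 12.2 to 16.8 FPKM and OE from 18 to 19.2 FPKM, a fold change of 0.43 ± 0.11 (adjusted p = 0.0962 in limma). Insig1, which retains Scap, read 33.2, 20.7, 22.2 and 22.1 FPKM in Ctrl and 37.7, 39.2, 46.3 and 53.2 FPKM in OE. These did not overlap as deposited (0.84 ± 0.42), but after scaling Ctrl3 reached 65.6 FPKM, above every OE library, and the fold change was 0.29 ± 0.39. Insig2 had 0.43 ± 0.43 and, after scaling, -0.04 ± 0.13.

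Sqle read 30.6, 15.3, 6.49 and 30.9 FPKM in Ctrl and 35.4, 31.0, 35.4 and 34.3 FPKM in OE, with OE2 just above Ctrl5. Its log2 fold change was 0.93 ± 0.50, and 0.39 ± 0.10 after scaling (adjusted p = 0.0955 in limma), where Ctrl ran from 19.2 to 23.6 FPKM and OE from 25.4 to 29.7 FPKM. Stard4 read 2.27, 1.46, 0.447 and 2.95 FPKM in Ctrl and 3.54, 3.35, 3.17 and 2.96 FPKM in OE. Its fold change was 0.87 ± 0.43, and 0.49 ± 0.15 after scaling (adjusted p = 0.128 in limma). Both genes kept the groups apart on both scales, though as deposited Stard4 in OE4 (2.96 FPKM) was also just above Ctrl5 (2.95 FPKM). When Ctrl3, the library with the largest acinar share, was left out, the fold changes as deposited were 0.55 for Scap, 0.47 for Sqle, 0.50 for Stard4 and 0.81 for Insig1, and after scaling 0.41, 0.33, 0.39 and 0.67. Without Ctrl2 they were 0.94, 0.86, 0.85 and 0.77 as deposited. As deposited, 0 of the 27 genes were called in any of the 8 limma fits that leave out a library.

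As deposited, 6 of the 27 genes had every OE library above every Ctrl library, Idi1, Sqle, Insig1, Scap, Srebf2 and Stard4, where 5.61% of all genes did so. After scaling 4 did, Sqle, Scap, Srebf2 and Stard4, against 11.9% of all genes. None had every OE library below every Ctrl library on either scale, where 0.964% of all genes did as deposited and 6.82% after scaling. With the acinar share as a covariate 6 of the 27 were called higher, beside 13.3% of all genes. They were Srebf2 (1.0 ± 0.22, adjusted p = 0.0344 in limma), Insig1 (0.83 ± 0.19, 0.0364), Scap (0.88 ± 0.23, 0.0414), Stard4 (0.80 ± 0.21, 0.0414), Npc2 (0.78 ± 0.21, 0.0414) and Sqle (0.83 ± 0.24, 0.0435). The acinar share ran from 2.10 to 72.6% over the Ctrl libraries and from 10.8 to 14.2% over the OE libraries.

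Of the synthesis enzymes other than Sqle, Hmgcs1 lay 0.34 above the median fold change of all genes and Acat2 at -0.73 relative to it, and the other 16 between -0.28 and 0.11. Hmgcs1 had 0.78 ± 0.45, from 7.44, 4.03, 2.09 and 5.93 FPKM in Ctrl to 9.15, 7.44, 7.91 and 7.54 FPKM in OE, and 0.28 ± 0.15 after scaling. Msmo1, lower in cKO, had 0.45 ± 0.48 and -0.08 ± 0.15 after scaling. Its Ctrl values of 14.6, 9.80, 3.99 and 17.4 FPKM enclosed the OE values of 14.3, 16, 14.7 and 11.1 FPKM. Tm7sf2 was uneven among the Ctrl libraries, at 18.1, 6.26, 2.20 and 15.8 FPKM, with 7.15, 9.06, 9.26 and 12.6 FPKM in OE.

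Acat2 went the other way. It read 2.17, 1.90, 1.16 and 3.99 FPKM in Ctrl and 2.10, 1.42, 1.55 and 1.58 FPKM in OE, a log2 fold change of -0.29 ± 0.40, and after scaling 1.5, 2.92, 3.42 and 2.72 FPKM in Ctrl and 1.77, 1.16, 1.25 and 1.31 FPKM in OE, a fold change of -0.71 ± 0.22 (adjusted p = 0.126 in limma). Ctrl1 kept the groups overlapping. Acat2 has a close paralog beside it on the chromosome, Acat3, and how reads shared by both were assigned is not given in the sources used here. Npc2 read 48.4, 21.4, 9.61 and 75.7 FPKM in Ctrl and 58.3, 58.7, 55.6 and 51.1 FPKM in OE. The OE values lay between those of Ctrl1 and Ctrl5, and the fold change was 0.90 ± 0.54, or 0.36 ± 0.18 after scaling. Npc1 had 0.69 ± 0.45 and Soat1 0.65 ± 0.46. Without Ctrl3 the fold changes as deposited were 0.38 for Npc2, 0.38 for Npc1 and 0.26 for Soat1, as they were 0.47 for Hmgcs1 and 0.033 for Msmo1.

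**Figure D5:**
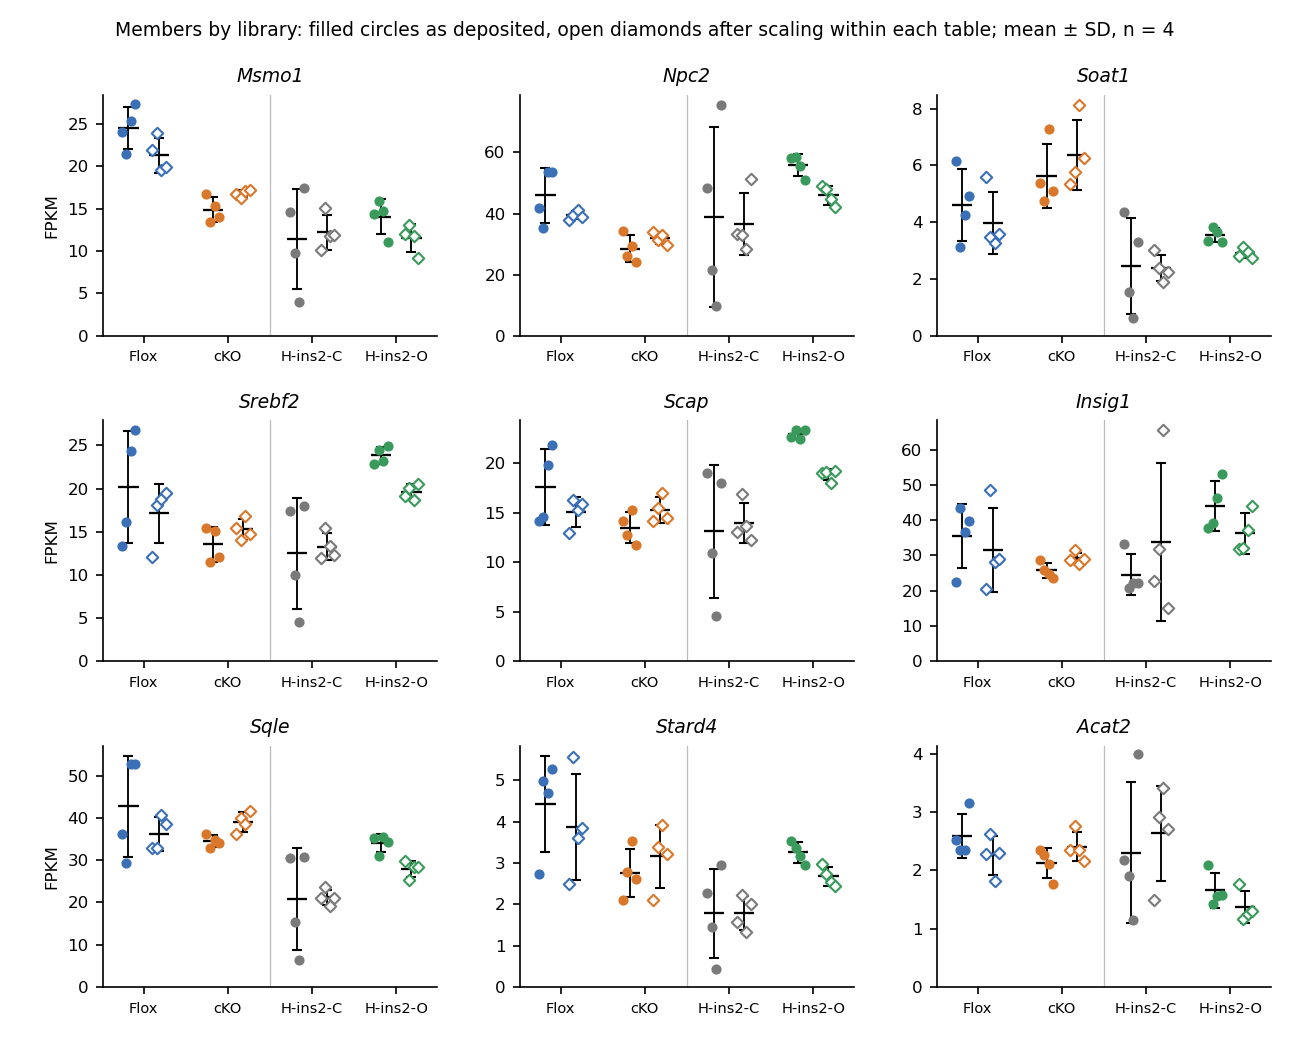
FPKM of 9 genes in every library, as deposited (filled circles) and after scaling within each table (open diamonds), with mean and SD of 4 libraries. The axes start at 0. Msmo1 and Npc2 are lower in cKO than in Flox on both scales without overlap, and Srebf2, Scap, Sqle and Stard4 are higher in H-ins2-O than in H-ins2-C on both scales without overlap. As deposited, the ranges of Sqle and of Stard4 nearly touch.

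Set side by side, 25 of the 27 genes tested in both comparisons (92.6%) had a lower mean in cKO and a higher mean in H-ins2-O as deposited, where 79.3% of all 11553 such genes did. After scaling 7 of the 27 (25.9%) did, where 30.6% of 11504 genes did. Scaled, 9 of the 27 were lower in both comparisons, 7 higher in both, and 4 higher in cKO and lower in H-ins2-O. The 2 comparisons share no libraries. Msmo1 had scaled fold changes of -0.33 in cKO and -0.08 in H-ins2-O, and Npc2 -0.30 and 0.36. Srebf2 had -0.14 and 0.55, and Scap 0.02 and 0.43.

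Ratios between partner genes do not depend on the scaling of a library. The ratio of Npc1 to Npc2 was 0.146 ± 0.0241 in cKO and 0.108 ± 0.0114 in Flox (SD, n = 4 each), with every cKO library above every Flox library, and a two-sided exact permutation test gave p = 0.0286, the smallest that 4 against 4 libraries allow, or 0.114 adjusted over the 8 ratios compared. The ratio of Srebf2 to Scap was 1.04 ± 0.0263 in H-ins2-O and 0.955 ± 0.0451 in H-ins2-C, with the same exact permutation p of 0.0286 and the same adjusted value of 0.114. The ratios of Insig1 to Insig2 and of Tm7sf2 to Lbr, and the other comparisons of the first 2 ratios, gave exact permutation p-values from 0.171 to 0.83. None of the 8 passed the threshold after adjustment. These 4 ratios were chosen after the values had been seen. Over the 8 chow libraries the ratio of Npc1 to Npc2 rose in the same order as the acinar share, from 0.0954 in Flox21 (7.37%) to 0.169 in cKO9 (45.4%). Within H-ins2-C it also rose in that order, from 0.0629 in Ctrl5 (2.10%) to 0.141 in Ctrl3 (72.6%), and within H-ins2-O it did not. The part of the acinar share in this ratio was not tested.

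Pairs of synthesis enzymes varied together between libraries as deposited, with a median correlation over pairs of 0.73 in the chow table and 0.89 in the virus table. Pairs of genes drawn from all genes tested had 0.66 and 0.86. After scaling the medians were 0.07 and 0.18 for the synthesis enzymes and 0.00 and -0.01 for all genes. These correlations are over 8 libraries that share the shift described above and are given as description. Scaled, the genes whose pattern followed the mean of the synthesis enzymes most closely in both tables, of 10291 genes ranked by the lower of the r in each table, were Gstm1 (r = 0.92), Scd2 (0.90), Arrdc2 (0.90), Myo15b (0.88) and Itpr2 (0.87). Among the 28 genes, Insig1 followed that mean with an r of 0.95 in the chow table and 0.80 in the virus table, while Npc2 had 0.23 and -0.82. Scaled Insig1 was highest in Flox17 (48.5 FPKM, cKO at most 31.4) and Ctrl3 (65.6 FPKM, OE at most 43.9), and r without these libraries was not computed. The synthesis enzymes themselves had r with the mean of the others from -0.75 (Ebp) to 0.94 (Idi1) in the chow table. In the virus table it ran from -0.55 (Pmvk) to 0.93 (Sc5d).

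SREBP2 binds short elements in promoters, of which TCACNCCAC is the classical form, and works there with factors that bind CCAAT (NF-Y) and GGGCGG (Sp1). CACGTG is the E-box, which SREBP1 also binds. These letters were searched on both strands of the RefSeq promoter windows of GRCm38.p6, 250 bases before to 50 bases after each gene's start, and 23 of the 28 genes had a window. No window was given for Npc1, Stard4, Fdps, Sqle and Fdft1. A CCAAT was found in 21 of the 23 (91.3%), against 41.1% of all 27025 genes with a window and 42.6% of the 9309 of them tested here. GGGCGG was found in 21 (91.3%), against 38.2% and 70.3%, and CACGTG in 5 (21.7%), against 8.09% and 11.9%. TCACNCCAC was found in 1 of the 23 (4.35%), Hmgcs1, against 1.44% and 1.29%. A gene counts when any of its windows holds the letters, and a match is not a binding site.

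The 250 bases before the start are shown for Hmgcs1, the gene with a TCACNCCAC, and for Msmo1 and Srebf2, chosen after their values had been seen because they lead the 2 comparisons. Capitals mark the element and every CCAAT, the latter also where its opposite strand is printed, as ATTGG. Hmgcs1 lies at chr13:119690101-119690350 on the plus strand, Msmo1 at chr8:64733579-64733828 on the minus strand and Srebf2 at chr15:82147019-82147268 on the plus strand, in GRCm38.p6, each written 5′ to 3′ in the direction of its gene.
Hmgcs1: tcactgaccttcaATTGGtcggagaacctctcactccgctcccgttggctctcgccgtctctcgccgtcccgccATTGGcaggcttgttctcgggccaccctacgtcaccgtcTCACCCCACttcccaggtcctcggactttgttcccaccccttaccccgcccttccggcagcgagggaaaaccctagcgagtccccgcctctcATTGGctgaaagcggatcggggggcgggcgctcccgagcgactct
Msmo1: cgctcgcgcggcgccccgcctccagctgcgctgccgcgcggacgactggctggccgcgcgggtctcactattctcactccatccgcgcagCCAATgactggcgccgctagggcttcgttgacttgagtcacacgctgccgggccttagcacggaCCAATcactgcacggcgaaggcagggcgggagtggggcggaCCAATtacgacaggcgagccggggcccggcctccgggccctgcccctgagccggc
Srebf2: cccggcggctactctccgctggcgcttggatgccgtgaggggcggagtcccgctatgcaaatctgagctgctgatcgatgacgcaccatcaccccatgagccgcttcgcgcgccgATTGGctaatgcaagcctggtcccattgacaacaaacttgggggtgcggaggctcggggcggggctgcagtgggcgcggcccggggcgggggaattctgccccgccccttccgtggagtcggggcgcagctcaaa

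In Hmgcs1 the TCACCCCAC begins 137 bases before the start, with ATTGG at 237, 176 and 45 bases before it. Msmo1 has 3 CCAAT, at 160, 96 and 55 bases before the start, and no TCACNCCAC in this window. Srebf2 has 1 ATTGG, at 135 bases. Among the genes with a window, the gene with an exact TCACNCCAC, Hmgcs1, had scaled log2 fold changes of 0.08 in cKO and 0.28 in H-ins2-O, neither of them called. Variant forms of the element were not searched.

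Other sterol and lipid genes were described from the same fits, in which 86.9% of all genes had a lower mean in cKO, 12.8% were called lower there, and 84.2% had a higher mean in H-ins2-O. Of 7 genes that process or degrade SREBP and its partners, all 7 had a lower mean in cKO and a higher mean in H-ins2-O as deposited. After scaling 6 were lower and 1 higher in cKO, and 5 higher and 2 lower in H-ins2-O. Rnf145, a sterol-regulated ubiquitin ligase that acts on Scap, was called in cKO and stayed called after scaling. It read 19.8, 15.1, 32.8 and 32.9 FPKM in Flox and 13.5, 9.82, 12.2 and 10.1 FPKM in cKO, a log2 fold change of -1.05 ± 0.23 (adjusted p = 0.0180 in limma), and -0.67 ± 0.13 after scaling (adjusted p = 0.0400 in limma). Over all genes 1.25% were called lower after scaling. The scaled call of Rnf145 was lost when any library other than Flox16 or Flox17 was left out, as no gene was called lower in those fits. With the acinar share as a covariate no gene was called lower either. No other gene of these lists that was tested after scaling was called. Rnf145 had 1.03 ± 0.54 in H-ins2-O, and Mbtps1, the site-1 protease that cuts SREBP, 0.93 ± 0.50 (adjusted p = 0.591 for both in limma). Erlin2, a partner of the Insig proteins in the endoplasmic reticulum, had -0.51 ± 0.18 in cKO (adjusted p = 0.0582 in limma).

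Of 9 genes of cholesterol efflux and the LXR response tested, all 9 had a lower mean in cKO and 8 a higher mean in H-ins2-O, and 1 was called, Apof in cKO (-0.83 ± 0.26, adjusted p = 0.0440 in limma), from a mean of 0.835 FPKM in Flox, close to the filter. After scaling, 8 genes of this list passed the filter in cKO against Flox and were tested, 4 of them higher and 4 lower in cKO. In H-ins2-O against H-ins2-C 9 were tested, 5 higher and 4 lower in H-ins2-O. Abca1, the main exporter of cholesterol to apolipoproteins, stood at 8.74 ± 1.46 FPKM in cKO and 19.3 ± 8.83 FPKM in Flox (-0.98 ± 0.33, adjusted p = 0.0654 in limma). In H-ins2-O Abca1 had 1.68 ± 0.52 and Apof 1.16 ± 0.40, both uncalled.

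Of 9 genes of sterol storage, lysosomal lipolysis and oxysterols, 8 had a lower mean in cKO and 6 a higher mean in H-ins2-O, and after scaling 3 and 4. Gramd1a, which carries cholesterol from the plasma membrane to the endoplasmic reticulum, was called lower in cKO (-0.82 ± 0.22, adjusted p = 0.0303 in limma; -0.44 ± 0.15 after scaling). Osbp, an oxysterol-binding lipid carrier, had -0.58 ± 0.20 in cKO and 0.66 ± 0.49 in H-ins2-O. Cyp27a1, a sterol 27-hydroxylase, had the lowest p of that list in H-ins2-O, at -1.12 ± 0.38 (adjusted p = 0.591 in limma). Of 10 genes of fatty acid synthesis, 8 had a lower mean in cKO and 8 a higher mean in H-ins2-O, and after scaling 6 and 6. Elovl6, a fatty acid elongase, was called (-1.19 ± 0.34, adjusted p = 0.0442 in limma). Acly, which supplies cytosolic acetyl-CoA, had 1.38 ± 0.52 in H-ins2-O. Fasn, fatty acid synthase, had -0.57 ± 0.20 in cKO (adjusted p = 0.0583 in limma) and 0.96 ± 0.46 in H-ins2-O.

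Of 11 genes that use isoprenoids, all 11 had a lower mean in cKO and a higher mean in H-ins2-O as deposited, and after scaling 5 had a higher and 6 a lower mean in each comparison. Coq2, of ubiquinone synthesis, was called in cKO (-0.61 ± 0.20, adjusted p = 0.0491 in limma). Rabggtb, a subunit of the transferase that prenylates Rab proteins, had -0.49 ± 0.17 in cKO. In H-ins2-O, Dhdds, of dolichol synthesis, had 0.99 ± 0.53 and Fntb, a farnesyltransferase subunit, 0.98 ± 0.55. None of the 5 lists had a gene called in H-ins2-O, and their medians in cKO lay between -0.49 and -0.16, beside -0.34 over all genes. After scaling the same medians lay between -0.11 and 0.07.

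Exons of 7 of the 28 genes overlap those of another protein-coding gene in GENCODE vM21, Lbr, Fdps, Cyp51, Ggps1, Fdft1, Npc1 and Tm7sf2. The share of exon bases concerned ran from 3.76% in Cyp51 to 26.7% in Fdps. Whether the counting used strand is not given in the sources used here, so reads of Lbr, Cyp51, Ggps1, Fdft1 and Npc1 cannot be told apart from those of a partner on the other strand. The partners of Fdps and Tm7sf2 (Gm43738 and Vps51, 26.7 and 12.1% of exon bases) lie on the same strand, where strand would not separate them.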

How the data were processed

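RNA of 16 islet libraries was sequenced on an Illumina NovaSeq, and the authors deposited FPKM per gene in 2 tables of 8 libraries (mm10 in the submitters' processing notes). The aligner and counter are not given in the sources used here. The sequencing depth in reads is unknown, and relative depths came from the steps between low FPKM values. All columns were mapped to labelled samples. The 28 genes and the other lists were chosen with earlier results of these data known.

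Each table was fitted apart with limma 3.58.1 in R 4.3.3 on log2(FPKM + 0.5), over genes that averaged 0.5 FPKM or more in its 8 libraries, by empirical Bayes with trend and robust fitting, two-sided, with Benjamini-Hochberg adjustment over all genes and a threshold of 0.05. The fit was tested on simulated data with noise drawn apart for each gene. That simulation held no shift of single libraries within a group, so it does not show how calls behave under the shift described above. Fold changes on this scale understate those of low genes. Alternatives were other pseudocounts (1 and 0.1), filters, median-of-ratios scaling, no trend, a replicate block, the 3 libraries per group of the heatmaps, the acinar share as a covariate, a fold minimum and leaving out each library. The covariate was the log2 of the acinar share in percent. Scaling combined with the block or with a left-out library, and the ratios, were added after the data were seen. Ratios used exact permutation tests in scipy 1.17.1.

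Named genes were the 28, Vtcn1, Ins1 and Ins2, in each other list those called and the 2 of lowest p in each comparison, and the 5 genes of highest likeness. Likeness was Pearson r with the mean of the synthesis enzymes after scaling, over genes that averaged 1 FPKM or more in both tables. Promoters came from RefSeq windows of 300 bases, matched by symbol. Figures were drawn with matplotlib 3.10.9.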

Additional observations from a re-analysis of the deposited data

Results flagged for a closer look

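Within groups of 4 libraries, 8 of 112 groups (28 genes in 4 groups) had a library whose gap to its nearest neighbour was over 0.83 of the range of the group, where chance gives about 1 in 20. In cKO, Mvk was at 1.54 FPKM in cKO38 against 2.77 to 2.86 FPKM in the other 3 libraries, Sc5d at 4.42 FPKM in cKO38 against 4.89 to 4.98 FPKM, and Cyp51 at 5.88 FPKM in cKO8 against 5.23 to 5.29 FPKM. In Flox, Dhcr7 was at 2.90 FPKM in Flox17 against 5.06 to 5.60 FPKM. In H-ins2-C, Insig1 was at 33.2 FPKM in Ctrl1 against 20.7 to 22.2 FPKM. In H-ins2-O, OE1 was the lowest library for 3 synthesis enzymes, Mvd (2.85 FPKM against 3.14 to 3.18), Ggps1 (2.78 against 3.52 to 3.61) and Lss (4.14 against 4.88 to 4.96).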

How the results depend on the processing

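The depth in reads is unknown, 4 libraries per group limit the precision, and the acinar share moves with the groups. Counts of calls differed by setting. In cKO against Flox, the 2 of the 28 genes called lower became 0 with every gene above 0 FPKM kept, 0 after median-of-ratios scaling, 0 with the acinar covariate, 0 with a fold minimum, 0 with scaling and the block, 16 with 3 libraries per group and 1 with 3 libraries and scaling, and 0 to 16 when a library was left out (after scaling 0 to 3 lower and 0 to 1 higher). Over all genes, the 1511 called lower became, in the same order, 0, 147, 0, 115, 0, 7484 and 317, 974 without trend and robust fitting, and 17 to 6759 with a library left out (after scaling 0 to 967, with 967 without Flox16, 547 without Flox17 and 0 otherwise). The 120 called higher became 0 with every gene, 0 with the covariate, 40 with a fold minimum, 0 with scaling and the block, 316 with 3 libraries, 561 with 3 libraries and scaling, and 2 to 348 with a library left out (after scaling 1017 without Flox16, 717 without Flox17 and 0 otherwise). In H-ins2-O against H-ins2-C, the 0 of the 27 genes called higher became 6 with the acinar covariate and 0 to 1 with a library left out after scaling. Over all genes the 4 called higher became 13 with every gene, 1 with 3 libraries and scaling, 1619 with the covariate, 2 with scaling and the block, 4 to 5 with a library left out and, after scaling, 137 without Ctrl3, 35 without Ctrl2 and 3 otherwise. The 0 called lower became 272 with the covariate and after scaling 73 without Ctrl3, 55 without Ctrl2 and 0 otherwise. The causes were not tested.

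Replicate numbers did not pair the samples: deviations of same-numbered cKO and Flox libraries correlated at -0.19, 0.12, -0.01 and -0.21, and of virus libraries at -0.13, -0.10, -0.02 and 0.10. With the number as a replicate block, 5 of the 28 genes were called lower in cKO (Msmo1, Npc2, Pmvk, Stard4 and Tm7sf2), and 2455 of all genes lower and 289 higher.

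Signs of uncalled fold changes turned as follows. After scaling, cKO against Flox gave Acat2 0.079, Hmgcs1 0.083, Fdft1 0.16, Sqle 0.12, Nsdhl 0.18, Hsd17b7 0.046, Ebp 0.16, Sc5d 0.14, Dhcr7 0.29, Scap 0.019 and Npc1 0.10, and H-ins2-O against H-ins2-C gave Pmvk -0.25, Mvd -0.33, Fdps -0.22, Ggps1 -0.22, Lss -0.083, Cyp51 -0.11, Tm7sf2 -0.30, Msmo1 -0.076, Nsdhl -0.094, Ebp -0.017, Sc5d -0.30 and Insig2 -0.039. With 3 libraries and scaling, cKO against Flox gave Acat2 0.15, Hmgcs1 0.12, Mvk 0.095, Fdps 0.075, Fdft1 0.30, Sqle 0.11, Nsdhl 0.35, Hsd17b7 0.16, Ebp 0.15, Sc5d 0.20, Dhcr7 0.32, Insig1 0.19, Scap 0.091, Stard4 0.088 and Npc1 0.20, and H-ins2-O against H-ins2-C gave Pmvk -0.22, Mvd -0.54, Idi1 -0.032, Fdps -0.41, Ggps1 -0.087, Fdft1 -0.11, Lss -0.091, Cyp51 -0.14, Tm7sf2 -0.31, Msmo1 -0.054, Nsdhl -0.20, Ebp -0.032, Sc5d -0.40 and Insig2 -0.050. With the acinar covariate, cKO against Flox gave Pmvk 0.058, Sqle 0.24, Nsdhl 0.18, Hsd17b7 0.16, Ebp 0.067, Dhcr7 0.28, Insig2 0.0087, Scap 0.028 and Srebf2 0.046. With a library left out, Dhcr7 in cKO ran from -0.25 to 0.034, turning without Flox21, and in H-ins2-O Pmvk ran from -0.30 to 0.51, Ggps1 from -0.13 to 0.60 and Tm7sf2 from -0.37 to 0.56, all turning without Ctrl3 and Ggps1 also without Ctrl2. Of the fold changes of single genes under an alternative, 858 kept direction and side of the threshold, 47 newly passed it, 17 no longer did and 66 turned.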
